A study of Mus musculus with 8 samples.

Results

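Cytoplasmic dynein, its activator dynactin, the kinesins and the adaptors that tie these motors to cargo were followed in mouse liver. A gene was a member when its symbol in the deposited table matched a fixed set of names: dynein chains (Dync1, Dync2 and Dynl genes), dynactin (Dctn and Actr1 genes), kinesin heavy and light chains (Kif and Klc genes), the BICD, Hook, Trak, Spdl1 and Ninl adaptors, the dynein regulators Pafah1b1, Nde1 and Ndel1, and the BICD cargo partners Rab6 and Ranbp2. The rule used names only, and it took 73 of the 13703 rows. Of these, 44 had a mean of at least 0.5 FPKM over the 8 libraries and were tested, and 29 lay under that filter. FPKM, the unit of the deposited values, is a read number scaled by gene length and library total, so levels of different genes can be set side by side.

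The tested libraries were 4 from Alb-Cre Bicd2fl/fl livers, in which an albumin-driven Cre recombinase acts on loxP-flanked Bicd2 in hepatocytes, and the other 4 came from Alb-WT Bicd2fl/fl livers, which carried the same floxed alleles without that Cre. Both genotypes were immunized intraperitoneally with 2.5 mg of S-100, a liver supernatant, in complete Freund's adjuvant once a week for 3 weeks, as a model of autoimmune hepatitis, with the liver collected 2 weeks after the final injection. Unimmunized livers were not analysed here, so each value describes the genotype difference within the model. Age and sex are not given in the labels used here. Whether each library stands for its own animal is not said in the labels, so the p-values cover the spread among these samples, possibly a technical one.

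Dynein walks along microtubules toward their minus ends and most kinesins toward the plus ends. On its own mammalian dynein moves poorly. Dynactin, a complex built on a short filament of actin-related proteins, and a coiled-coil activating adaptor such as BICD2 turn it into a processive motor and choose its cargo. BICD2 binds RAB6 on Golgi-derived vesicles and RANBP2 at nuclear pores. In hepatocytes microtubule motors carry secretory vesicles, endosomes and transcytotic cargo between the sinusoidal and the canalicular side. A separate set of kinesins builds the mitotic spindle and is transcribed mainly in dividing cells.

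Whole-liver RNA holds hepatocytes together with the resident and infiltrating cells, and fewer cells of a type and less RNA per cell cannot be told apart in it. Reads recovered over the listed genes numbered 32524927 to 38893858 per library. Alb-Cre replicate 4 stood apart: across genes, on the log2 scale, it correlated at 0.966 to 0.968 with the other Alb-Cre libraries and at 0.980 to 0.982 with the Alb-WT libraries, while the other 3 Alb-Cre libraries correlated at 0.996 to 0.997 with each other. It lay nearer to the Alb-WT mean than to the mean of those 3 libraries for 29 of the 44 tested motor genes, against 61.7% of all 11077 tested rows. Counts below are given with it, and without it where they changed.

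Most of the tested motor genes were not called. On log2(FPKM + 1), 2 of the 44 rose in Alb-Cre livers, against 8.48% of all tested rows, 9 fell, against 23.3%, and 33 were not called (limma, Benjamini-Hochberg adjusted p under 0.05 over all 11077 rows). The 11 calls were 2 dynein light chains that rose, Dynlrb1 and Dynll1, and 9 genes that fell: Bicd2, Ranbp2, Hook3, Dync1h1, Dync2li1, Kif1c, Kif1b, Kif2a and Kif16b. The share called in either direction over all rows was 31.8%. The median log2 fold change of the 44 genes was -0.13, and that of all tested rows was also -0.13. Without Alb-Cre replicate 4, 3 motor genes rose, against 15.2% of all rows, and 24 fell, against 46.1%. The 4 and 4 values did not overlap for 2 of the 73 members on the higher side, against 7.93% of all rows, and for 14 on the lower side, against 19.9%.

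**Figure D1:**
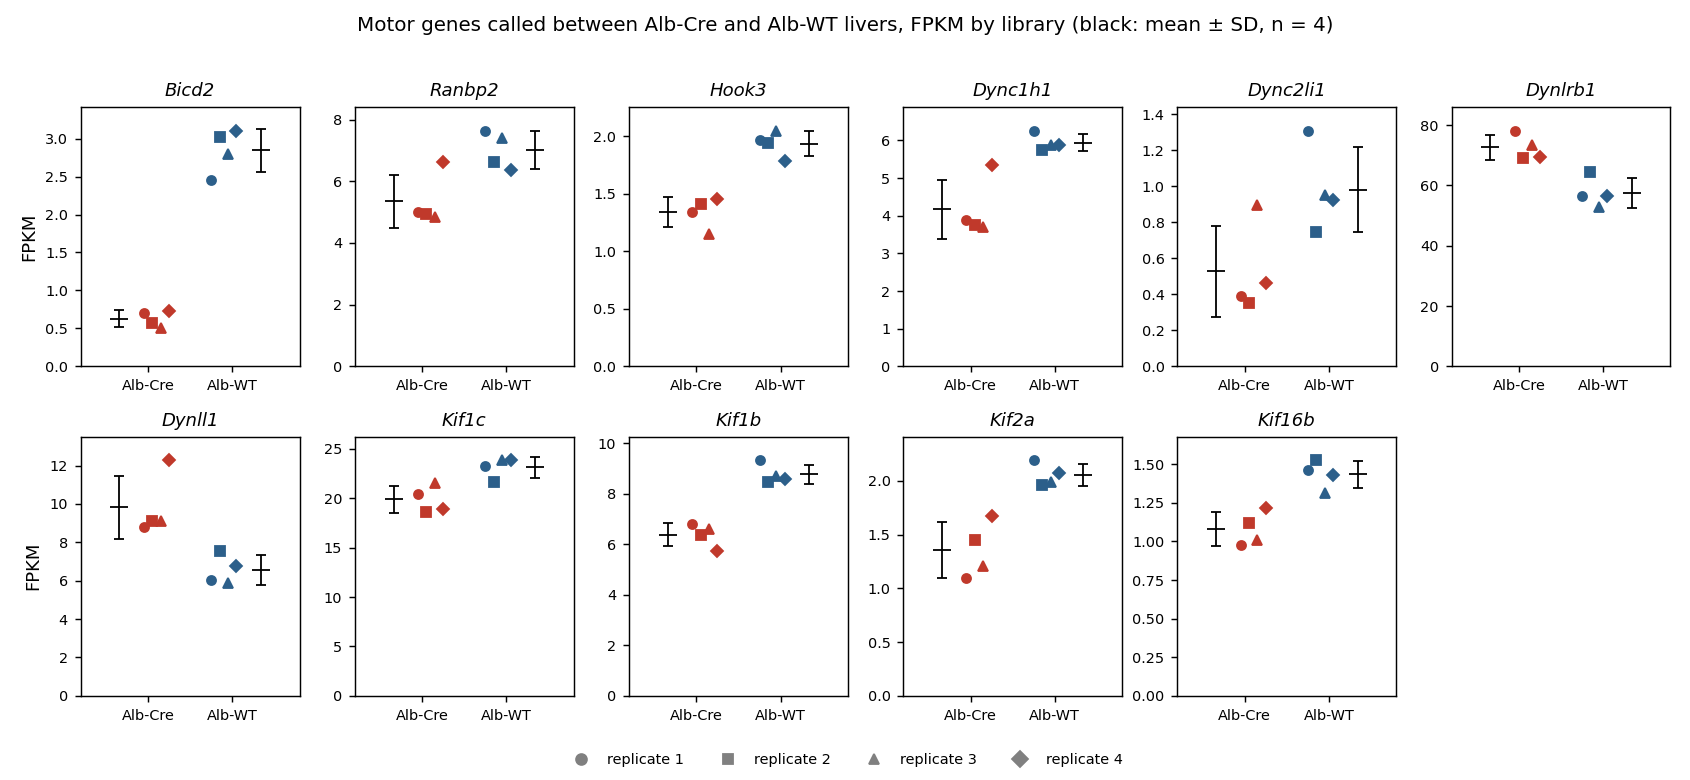
FPKM of the 11 called motor genes in each library, Alb-Cre in red on the left and Alb-WT in blue on the right of each panel, with a marker shape for each replicate number and the mean ± SD (n = 4) in black; every axis starts at 0. Bicd2 shows the widest gap, at 0.509 to 0.732 FPKM in Alb-Cre against 2.46 to 3.11 FPKM in Alb-WT livers, and for Dync1h1 and Ranbp2 the Alb-Cre replicate 4 diamond stands above the other Alb-Cre points.

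Bicd2, the targeted gene, was checked first. It had 0.705, 0.568, 0.509 and 0.732 FPKM in Alb-Cre livers, against 2.46, 3.02, 2.80 and 3.11 FPKM in Alb-WT livers. Every Alb-Cre library was below every Alb-WT library, replicate 4 included. The means were 0.628 ± 0.107 FPKM in Alb-Cre and 2.85 ± 0.288 FPKM in Alb-WT livers (SD, n = 4 each), a 4.53-fold lower level in Alb-Cre. The log2 fold change was -1.24 (SE 0.082, limma adjusted p = 7.25e-05), and an exact two-sided permutation test gave p = 0.0286, the smallest that 70 assignments allow. The labels used here do not name the deleted exons, and a value per gene does not show which exons the remaining reads came from.

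The paralogs of Bicd2 were low throughout, and both listed ones were lower in Alb-Cre livers. Bicd1, which encodes the closest relative of BICD2, had 0.0153 to 0.0280 FPKM in Alb-Cre and 0.0316 to 0.0705 FPKM in Alb-WT livers. Bicdl1, which encodes a BICD-related adaptor known for RAB6 vesicles, had 0.243 to 0.303 FPKM in Alb-Cre and 0.359 to 0.586 FPKM in Alb-WT livers. In neither gene did the groups overlap. Both lay under the filter, so they were tested on the recovered read numbers of all 13703 rows with voom, a limma method for counts. There Bicd1 had a log2 fold change of -1.31 (adjusted p = 0.0296) and Bicdl1 of -0.75 (adjusted p = 0.0374), on 14 to 75 and 49 to 121 reads per library. Bicdl2 was not among the rows analysed here. Of the FPKM summed over the family, Bicd2 made up 62.6% to 73.2% in Alb-Cre livers, against 81.2% to 87.5% in Alb-WT livers.

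Of the BICD cargo partners 1 of 2 tested genes fell, against 23.3% of all tested rows. Rab6a, which encodes the small GTPase that recruits BICD2 to Golgi vesicles, had 18.4, 18.1, 16.8 and 18.1 FPKM in Alb-Cre and 17.0, 15.3, 17.8 and 15.1 FPKM in Alb-WT livers, with overlapping groups (log2 fold change 0.13, SE 0.070, limma adjusted p = 0.186). Ranbp2, which encodes the nuclear pore protein that binds BICD2, had 4.99, 4.94, 4.85 and 6.64 FPKM in Alb-Cre and 7.64, 6.64, 7.41 and 6.38 FPKM in Alb-WT livers. Its groups overlapped through Alb-Cre replicate 4 alone. Ranbp2 fell by 0.34 on the log2 scale (SE 0.10, limma adjusted p = 0.0345), a call that was lost on leaving out any single library other than Alb-Cre replicate 4. Rab6b, a less abundant relative of Rab6a under the filter, had 0.189 to 0.467 FPKM in Alb-Cre and 0.418 to 0.532 FPKM in Alb-WT livers. Voom did not call Rab6b with all libraries (adjusted p = 0.0530) and called it lower without Alb-Cre replicate 4 (log2 fold change -1.19, adjusted p = 0.00207).

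The Hook adaptors activate dynein, as BICD2 does, and are known for endosome transport. Of the 3 genes 1 fell, against 23.3% of all tested rows. Hook1, the most abundant of them, had 9.21, 8.68, 7.76 and 9.70 FPKM in Alb-Cre and 8.20, 8.13, 8.68 and 7.31 FPKM in Alb-WT livers and was not called (log2 fold change 0.11, limma adjusted p = 0.296). Hook3 had 1.34, 1.41, 1.15 and 1.46 FPKM in Alb-Cre and 1.97, 1.94, 2.05 and 1.78 FPKM in Alb-WT livers, without overlap. It fell by 0.33 on the log2 scale (SE 0.070, limma adjusted p = 0.0113). Hook2 was not called with all libraries (log2 fold change -0.52, limma adjusted p = 0.0692) and was called without Alb-Cre replicate 4 (-0.75, adjusted p = 9.77e-06). Of the adaptors under the filter, Ninl, of the ninein-like protein at centrosomes, had 0.117 to 0.352 FPKM in Alb-Cre and 0.328 to 0.506 FPKM in Alb-WT livers. Voom called Ninl lower with all libraries (log2 fold change -1.13, adjusted p = 0.0325) and without Alb-Cre replicate 4 (-1.48, adjusted p = 0.000736). Spdl1, of the kinetochore adaptor Spindly, had 0.0691 to 0.207 FPKM in Alb-Cre and 0.103 to 0.238 FPKM in Alb-WT livers.

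Trak1 and Trak2, whose products link motors to mitochondria, were not called. Trak1 had 3.86, 3.76, 3.78 and 5.49 FPKM in Alb-Cre and 4.41, 3.51, 4.27 and 4.26 FPKM in Alb-WT livers. The first 3 Alb-Cre values lay within the Alb-WT range and the fourth above it (log2 fold change 0.02, limma adjusted p = 0.901). Trak2 had a log2 fold change of -0.27 (adjusted p = 0.129), and without Alb-Cre replicate 4 of -0.39 (adjusted p = 0.00104).

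None of the 3 tested regulators of dynein passed the test, against 31.8% of all tested rows called in either direction. Pafah1b1, which encodes the lissencephaly protein LIS1, had 9.56, 9.001, 9.75 and 9.13 FPKM in Alb-Cre and 9.56, 10.0, 9.11 and 9.44 FPKM in Alb-WT livers. Its log2 fold change was -0.02, with a 95% interval of -0.16 to 0.11. Nde1, of a LIS1-binding protein, had -0.02, and Ndel1, its relative, had -0.32 (limma adjusted p = 0.0641). Without Alb-Cre replicate 4 Ndel1 was called, at -0.44 (adjusted p = 0.000398).

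Of the heavy, intermediate and light intermediate chains of dynein-1, 1 of 4 fell, against 23.3% of all tested rows. Dync1h1, which encodes the heavy chain that holds the ATPase ring of cytoplasmic dynein-1, had 3.88, 3.77, 3.71 and 5.34 FPKM in Alb-Cre and 6.26, 5.75, 5.87 and 5.89 FPKM in Alb-WT livers. The groups did not overlap, and Alb-Cre replicate 4 lay closer to the Alb-WT values than to its own group. The means were 4.17 ± 0.783 FPKM in Alb-Cre and 5.94 ± 0.221 FPKM in Alb-WT livers (SD, n = 4 each). Dync1h1 fell by 0.43 on the log2 scale (SE 0.10, limma adjusted p = 0.0154).

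The chains that sit on the heavy chain were not called. Dync1i2, the most abundant of the dynein-1 chains other than the light chains and the intermediate chain to which dynactin binds, had 5.72, 5.97, 5.83 and 6.53 FPKM in Alb-Cre and 7.20, 6.29, 7.09 and 6.51 FPKM in Alb-WT livers (log2 fold change -0.15, SE 0.069, limma adjusted p = 0.125). The light intermediate chains, which contact the adaptors, had log2 fold changes of -0.12 for Dync1li1 and -0.31 for Dync1li2. All 4 tested genes of this group were lower and called without Alb-Cre replicate 4, against 46.1% of all tested rows, and 1 of the 4, Dync1h1, with it. Dync1i1, the intermediate chain gene known from neurons, was not among the rows analysed here.

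Of dynein-2, the motor of transport within cilia, 2 of 4 listed genes were in the table. Dync2li1 had 0.392, 0.352, 0.898 and 0.465 FPKM in Alb-Cre and 1.31, 0.743, 0.949 and 0.924 FPKM in Alb-WT livers, and Alb-Cre replicate 3 lay inside the Alb-WT range. It passed narrowly (log2 fold change -0.38, SE 0.13, limma adjusted p = 0.0492), on 22 to 82 reads per library, and the call was lost on leaving out any library other than Alb-Cre replicates 3 and 4. The heavy chain gene Dync2h1 had 0.0585 to 0.138 FPKM in Alb-Cre and 0.134 to 0.232 FPKM in Alb-WT livers. Voom did not call Dync2h1 with all libraries (adjusted p = 0.135) and called it lower without Alb-Cre replicate 4 (log2 fold change -0.78, adjusted p = 0.035).

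The light chains were the most abundant dynein genes and held the only 2 rises. These were 2 of 6 tested light chain genes, against 8.48% of all tested rows. Dynlrb1, of the roadblock chain, had 78.2, 69.2, 73.6 and 69.5 FPKM in Alb-Cre and 56.5, 64.5, 52.8 and 56.6 FPKM in Alb-WT livers, with every Alb-Cre library above every Alb-WT library. Its means were 72.6 ± 4.22 FPKM in Alb-Cre and 57.6 ± 4.92 FPKM in Alb-WT livers (SD, n = 4 each), and it rose by 0.33 on the log2 scale (SE 0.077, limma adjusted p = 0.0156). Without Alb-WT replicate 3 that call was lost (adjusted p = 0.0512).

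Dynll1, of the LC8 chain, a hub protein with many partners outside dynein, had 8.80, 9.11, 9.10 and 12.3 FPKM in Alb-Cre and 6.02, 7.55, 5.89 and 6.75 FPKM in Alb-WT livers. Again the groups did not overlap, and Alb-Cre replicate 4 was the highest. It rose by 0.51 on the log2 scale (SE 0.12, limma adjusted p = 0.0135), and by 0.41 without Alb-Cre replicate 4 (adjusted p = 0.00109).

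The close relative Dynll2, at 52.2 to 73.3 FPKM in Alb-Cre and 57.9 to 66.0 FPKM in Alb-WT livers, was not called (log2 fold change 0.00), and neither were Dynlt3 (0.08), Dynlt1b (-0.25) or Dynlt1c (-0.01). Without Alb-Cre replicate 4 Dynlt3 was also called higher, at 0.15 (limma adjusted p = 0.0463). Dynlt1a had 0.0715 to 0.359 FPKM in Alb-Cre and 0.152 to 0.259 FPKM in Alb-WT livers, and Dynlt1f had 0.0988 to 0.648 FPKM in Alb-Cre and 0.298 to 0.707 FPKM in Alb-WT livers. Voom called neither with all libraries, and without Alb-Cre replicate 4 it called Dynlt1f lower (log2 fold change -1.52, adjusted p = 0.00691). The Dynlt1 genes are near-identical copies that share reads, so the split of reads between them is uncertain.

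Dynactin did not pass in any of its 9 genes, where 31.8% of all tested rows were called in either direction. Dctn3, of the p24 shoulder subunit and the most abundant, had 21.1, 24.1, 26.5 and 25.1 FPKM in Alb-Cre and 22.4, 24.9, 22.9 and 24.8 FPKM in Alb-WT livers, with overlapping groups (log2 fold change 0.02, SE 0.081, limma adjusted p = 0.850). Dctn1, of p150Glued, which binds microtubules and dynein, had a log2 fold change of -0.11. Dctn2, of dynamitin, had -0.09. Actr1a and Actr1b, of the actin-related protein that forms the filament, had -0.11 and 0.01, and the pointed-end genes Actr10, Dctn4, Dctn5 and Dctn6 had 0.11, -0.15, -0.11 and -0.10.

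The 95% intervals of the 9 dynactin genes lay between -0.37 and 0.25, which bounds how far each could have moved but does not show equal levels. Summed over the 9 genes, dynactin came to 86.3 to 107.4 FPKM in Alb-Cre and 95.5 to 97.7 FPKM in Alb-WT livers, and the highest Alb-Cre sum was that of replicate 4. Without that library 4 of the 9 genes were called, all lower (Dctn2, Dctn5, Dctn6 and Actr1a), against 46.1% of all rows. With median-of-ratios scaling Actr10 (0.27, limma adjusted p = 0.0300) and Actr1b (0.19, adjusted p = 0.0426) were called higher, against 16.9% of all rows. The groups of Dctn4 did not overlap, at 1.92 to 2.04 FPKM in Alb-Cre and 2.14 to 2.51 FPKM in Alb-WT livers.

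**Figure D2:**
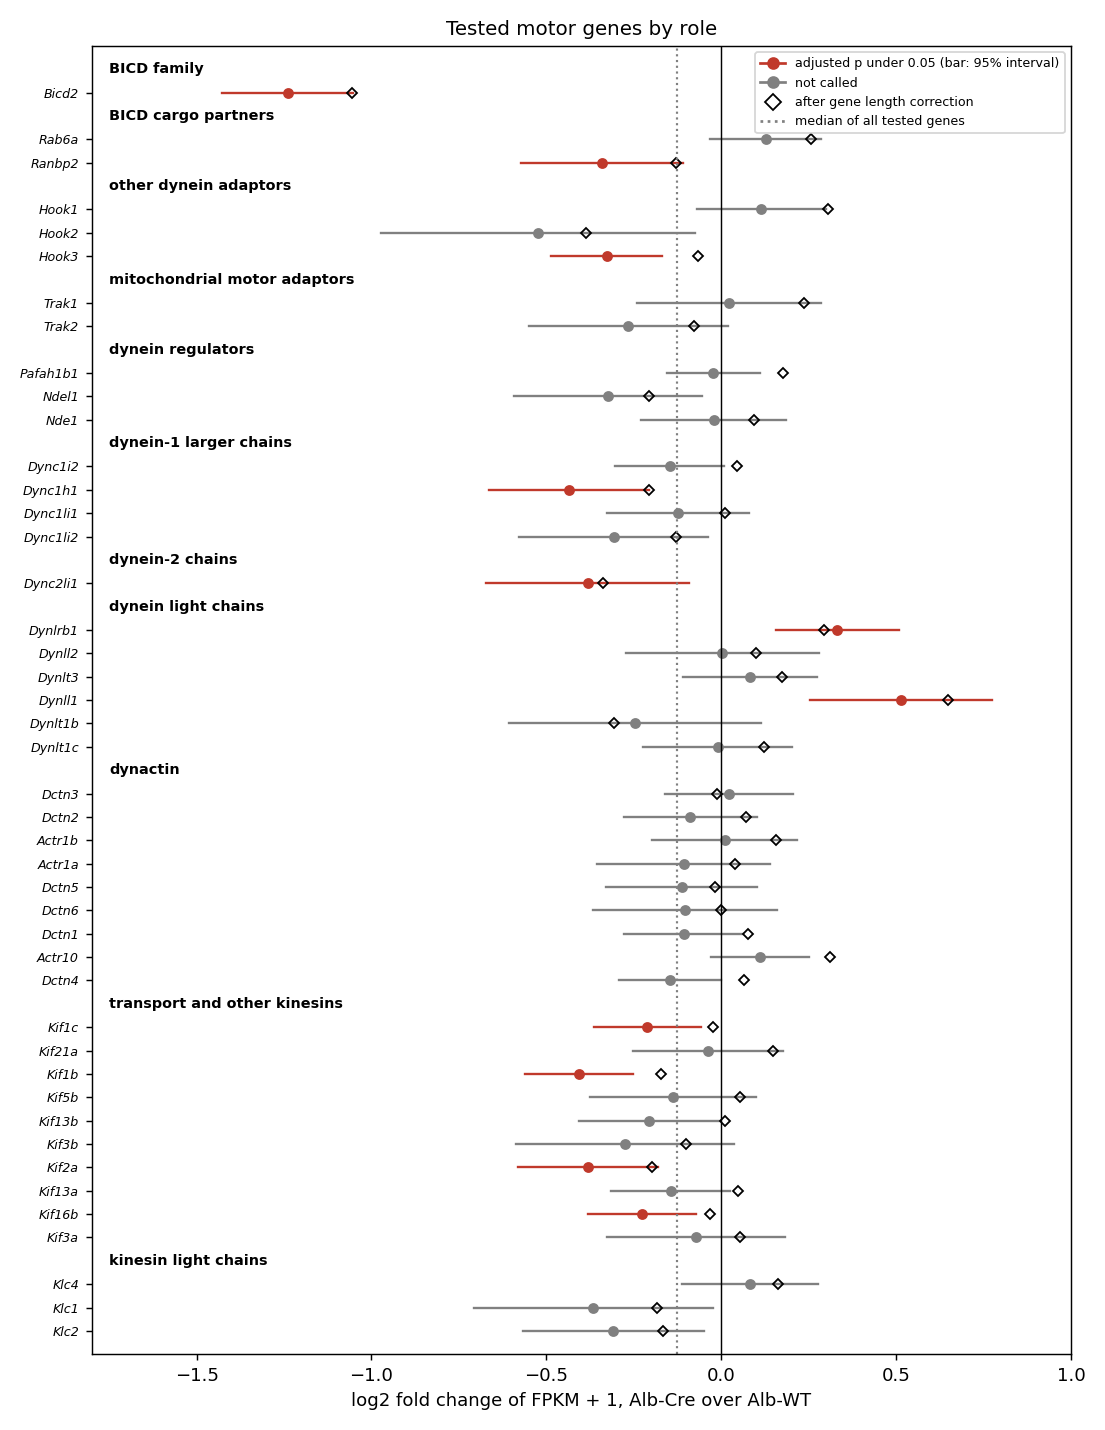
Log2 fold change of FPKM + 1, Alb-Cre over Alb-WT, for the 44 tested motor genes by role, with 95% intervals; red marks an adjusted p under 0.05, gray the rest, open diamonds the value after the gene length correction, and the dotted line the median of all tested genes, -0.13. Bicd2 lies far to the left at -1.24, the dynactin genes straddle 0, and Dynlrb1 and Dynll1 are the red points to the right of 0.

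Kinesins that carry cargo or act in interphase were lower where they were called at all. Of 10 tested genes 4 fell, against 23.3% of all tested rows, and 6 were not called. The median log2 fold change was -0.21, against -0.13 over all rows. After a smooth trend on gene length was removed, which also recentred each library, none of the 10 was called and their median was -0.01. With median-of-ratios scaling, which does not use length, 1 was lower and the median was -0.04. Kif1c, the most abundant kinesin gene, whose product moves vesicles to the cell periphery, had 20.4, 18.6, 21.6 and 19.0 FPKM in Alb-Cre and 23.3, 21.6, 23.9 and 23.8 FPKM in Alb-WT livers. The groups met without overlapping, and Kif1c fell by 0.21 on the log2 scale (SE 0.068, limma adjusted p = 0.0435). That call was lost on leaving out any library other than Alb-Cre replicates 3 and 4.

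Kif1b, of a motor for mitochondria and synaptic vesicle precursors, had 6.81, 6.37, 6.59 and 5.74 FPKM in Alb-Cre and 9.32, 8.48, 8.71 and 8.56 FPKM in Alb-WT livers. Its groups stood well apart, and Alb-Cre replicate 4 was the lowest of all. The means were 6.38 ± 0.464 FPKM in Alb-Cre and 8.77 ± 0.384 FPKM in Alb-WT livers (SD, n = 4 each), with a fall of 0.41 on the log2 scale (SE 0.068, limma adjusted p = 0.00446).

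Kif2a, of a kinesin that depolymerizes microtubule ends rather than walking, had 1.09, 1.45, 1.21 and 1.67 FPKM in Alb-Cre and 2.19, 1.96, 1.99 and 2.07 FPKM in Alb-WT livers, without overlap. It fell by 0.38 (SE 0.088, limma adjusted p = 0.0151). Kif16b, of an early endosome motor, had 0.975, 1.12, 1.01 and 1.21 FPKM in Alb-Cre and 1.46, 1.53, 1.32 and 1.43 FPKM in Alb-WT livers, also without overlap. It fell by 0.23 (SE 0.068, limma adjusted p = 0.0343), a call that leaving out any single library other than Alb-Cre replicate 4 removed.

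The conventional kinesin heavy chain gene of most tissues, Kif5b, was not called (log2 fold change -0.14). Nor were Kif21a (-0.04), Kif13a (-0.15), Kif13b (-0.21), or Kif3a (-0.07) and Kif3b (-0.28), whose products pair in the ciliary motor kinesin-II. Kif1c, Kif21a, Kif1b and Kif5b together made up 71.2% to 79.9% of the FPKM summed over all kinesin heavy chain genes in Alb-Cre livers, against 72.3% to 74.1% in Alb-WT livers. That whole sum was 49.8 to 59.4 FPKM in Alb-Cre and 62.1 to 66.4 FPKM in Alb-WT livers. Without Alb-Cre replicate 4, 7 of the 10 genes were lower, against 46.1% of all tested rows.

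The kinesin light chains, which bind cargo, were led by Klc4 and were not called. Klc4 had 26.9, 25.4, 27.9 and 29.99 FPKM in Alb-Cre and 26.4, 24.3, 23.7 and 29.7 FPKM in Alb-WT livers (log2 fold change 0.08, SE 0.086, limma adjusted p = 0.477). Klc1 had a log2 fold change of -0.37 (adjusted p = 0.0884) and Klc2 of -0.31 (adjusted p = 0.0650), and both were called without Alb-Cre replicate 4, at -0.53 and -0.38. Klc3 had 0.0868 to 0.106 FPKM in Alb-Cre and 0.0102 to 0.136 FPKM in Alb-WT livers.

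The other 10 kinesins of this role were under the filter. Kif21b, of a motor known in neurons and T cells, had 0.0758 to 0.340 FPKM in Alb-Cre and 0.472 to 0.593 FPKM in Alb-WT livers, without overlap (voom log2 fold change -1.92, adjusted p = 0.00475). Kif5a, a neuronal conventional kinesin gene, had 0.103 to 0.285 FPKM in Alb-Cre and 0.331 to 0.431 FPKM in Alb-WT livers, also without overlap (voom -1.22, adjusted p = 0.0181). Kif7, of a Hedgehog pathway regulator, had 0.0266 to 0.167 FPKM in Alb-Cre and 0.153 to 0.270 FPKM in Alb-WT livers (voom -1.54, adjusted p = 0.0423).

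The remaining 7 were not called by voom with all libraries. Without Alb-Cre replicate 4 it called Kif5c (adjusted p = 0.00233), Kif26b (0.00581), Kif3c (0.0142) and Kif19a (0.0354) lower, against 44.5% of all rows. Kif9, Kif26a and Kif1a were not called there either. Kif9 had 0.177 to 0.570 FPKM in Alb-Cre and 0.352 to 0.569 FPKM in Alb-WT livers, and Kif3c had 0.0906 to 0.228 FPKM in Alb-Cre and 0.185 to 0.256 FPKM in Alb-WT livers. Kif26a, at 0.111 to 0.198 FPKM in Alb-Cre and 0.0702 to 0.198 FPKM in Alb-WT livers, and Kif26b, at 0.0244 to 0.106 FPKM in Alb-Cre and 0.0700 to 0.133 FPKM in Alb-WT livers, overlapped too. So did Kif19a, at 0.0294 to 0.251 FPKM in Alb-Cre and 0.0730 to 0.215 FPKM in Alb-WT livers, Kif5c, at 0.00854 to 0.118 FPKM in Alb-Cre and 0.0720 to 0.160 FPKM in Alb-WT livers, and Kif1a, at 0.0120 to 0.0768 FPKM in Alb-Cre and 0.0384 to 0.0463 FPKM in Alb-WT livers.

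The kinesins listed here as mitotic were all under the filter. They are called spindle kinesins for short, a name of the list and not of the role of each gene. Their summed level separated 3 Alb-Cre libraries from the rest. Of the 12 listed genes 10 were in the table. Their summed level was 0.461, 0.790, 0.542 and 2.36 FPKM in Alb-Cre replicates 1 to 4, against 2.30 to 2.46 FPKM in Alb-WT livers. Relative to the Alb-WT mean, Alb-Cre replicates 1 to 3 stood at 19.5% to 33.5% and replicate 4 at 99.9%. By voom over all rows 4 of the 10 were lower and none was higher with all libraries, and 8 of the 10 were lower without Alb-Cre replicate 4. Over all 29 motor genes under the filter voom called 10 lower, against 16.1% of all 2626 rows under it, and none higher, against 1.98%. Over all 73 members it called 18 lower, against 23.7% of 13703 rows, and 2 higher, against 6.97%, and without Alb-Cre replicate 4 it called 45 lower, against 44.5%, and 3 higher, against 13.1%.

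Kif11, of the bipolar motor Eg5 that pushes spindle poles apart, was the most abundant of them. It had 0.0490, 0.112, 0.135 and 0.356 FPKM in Alb-Cre and 0.520, 0.617, 0.366 and 0.452 FPKM in Alb-WT livers, which is 12 to 179 reads per library. No Alb-Cre library reached the lowest Alb-WT value, although replicate 4 came close (voom log2 fold change -1.86, adjusted p = 0.0155). Kif22, of a chromosome arm motor, had 0.0498 to 0.323 FPKM in Alb-Cre and 0.398 to 0.506 FPKM in Alb-WT livers (voom -1.94, adjusted p = 0.0115).

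Kif23, of the centralspindlin motor of cytokinesis, had 0.0270 to 0.252 FPKM in Alb-Cre and 0.244 to 0.465 FPKM in Alb-WT livers (voom -1.99, adjusted p = 0.0218). Kif14, another cytokinesis kinesin gene, had 0.00589 to 0.0394 FPKM in Alb-Cre and 0.0298 to 0.110 FPKM in Alb-WT livers (voom -2.06, adjusted p = 0.0355). Both overlapped between the groups through Alb-Cre replicate 4 alone.

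The other 6 did not pass voom with all libraries. Kif4, of a chromokinesin, had 0.0111 to 0.283 FPKM in Alb-Cre and 0.137 to 0.234 FPKM in Alb-WT livers. Kif2c, of a kinetochore depolymerase, had 0.0274 to 0.363 FPKM in Alb-Cre and 0.164 to 0.265 FPKM in Alb-WT livers. For these 2 genes Alb-Cre replicate 4 was above every Alb-WT library. Kif20a, at 0.0387 to 0.424 FPKM in Alb-Cre and 0.186 to 0.263 FPKM in Alb-WT livers, did the same, and Kif20b had 0.0161 to 0.183 FPKM in Alb-Cre and 0.118 to 0.253 FPKM in Alb-WT livers. Kif18a had 0.0124 to 0.0883 FPKM in Alb-Cre and 0.0274 to 0.124 FPKM in Alb-WT livers, and Kif24 had 0.0446 to 0.127 FPKM in Alb-Cre and 0.0637 to 0.161 FPKM in Alb-WT livers. Kif24 did not follow the summed level, as Alb-Cre replicate 4 had its lowest value. Without that library voom called neither Kif18a (adjusted p = 0.309) nor Kif24 (adjusted p = 0.538). Kif15 and Kif18b were not among the rows analysed here.

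Other genes of dividing cells and markers of the cell types of the liver were measured beside the spindle kinesins. Of 28 listed non-kinesin cell cycle genes 23 were in the table. By voom over all rows 12 of the 23 were lower, against 23.7% of all rows, and none was higher, and without Alb-Cre replicate 4, 18 were lower, against 44.5%, and 1 was higher. On log2(FPKM + 1) 14 of them entered the test and 7 fell, against 23.3% of all tested rows. But 4 of these 7 (Ccna2, Mki67, Top2a and Ube2c) averaged under 0.5 FPKM in Alb-Cre livers and passed the filter through the Alb-WT libraries. The summed level of the 23 genes, relative to the Alb-WT mean, was 53.6%, 63.1% and 59.7% in the first 3 Alb-Cre replicates. It was 100% in the fourth, against 97.9% to 103% in Alb-WT livers.

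Pcna, of the replication clamp and the most abundant of these genes, had 7.43, 9.12, 7.84 and 9.58 FPKM in Alb-Cre and 10.2, 10.2, 11.1 and 10.5 FPKM in Alb-WT livers (log2 fold change -0.28, limma adjusted p = 0.0350, and 0.322 with median-of-ratios scaling). Mki67, of the Ki-67 protein, had 0.0485, 0.0534, 0.0556 and 1.01 FPKM in Alb-Cre livers, with replicate 4 highest, against 1.12 to 1.28 FPKM in Alb-WT livers. Its log2 fold change was -0.84 on log2(FPKM + 1) and -3.35 by voom (adjusted p = 0.00662). Ccna2, of cyclin A2, had -0.64 on log2(FPKM + 1) and -2.39 by voom (adjusted p = 0.00475), and Aurka, of a spindle pole kinase, had -0.38 and -0.58 (voom adjusted p = 0.0332). Of the replication helicase genes, chosen here with their values known, Mcm2 and Mcm6 stood at 0.04 each, Mcm3 at -0.18 and Mcm5 at -0.06. None of them was called with all libraries. Without Alb-Cre replicate 4, Mcm3 (-0.26, limma adjusted p = 0.0474) and Mcm5 (-0.21, adjusted p = 0.0344) were called lower, and Mcm2 and Mcm6 were not called. Rrm2, of a ribonucleotide reductase subunit and chosen likewise, was higher in every Alb-Cre library than in any Alb-WT library and was not called (0.25, limma adjusted p = 0.0719).

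Immune cell markers are given as sums over the markers in the table, with the number that voom called lower, against 23.7% of all rows. The Kupffer cell list, with 11 of 11 markers in the table and all 11 lower, summed to 269.8 to 280.7 FPKM in Alb-Cre replicates 1 to 3, 782.6 FPKM in replicate 4 and 834.5 to 886.8 FPKM in Alb-WT livers. The markers differed in replicate 4. Marco (125.4 FPKM, against 83.1 to 90.4 FPKM in Alb-WT livers) was above every Alb-WT library, and C1qa, C1qb and C1qc lay within the Alb-WT range. The other 7, such as Clec4f (72.2 FPKM, against 101.5 to 111.6 FPKM), were below every Alb-WT library. The monocyte and infiltrating macrophage list, 8 of 8 in the table and 7 lower, summed to 83.9 to 94.8 FPKM in Alb-Cre replicates 1 to 3, 409 FPKM in replicate 4 and 408.8 to 437.2 FPKM in Alb-WT livers. Lyz2 made up most of that sum, at 388.3 FPKM in replicate 4 and 367.6 to 396.4 FPKM in Alb-WT livers. In replicate 4 Chil3 (7.39 FPKM, against 22.5 to 25.2 FPKM), Ly6c2, Ccr2 and Cx3cr1 were below every Alb-WT library. Itgam and Ms4a7 were above every Alb-WT library there, and Fcgr1 and Lyz2 lay within the Alb-WT range. For T and NK cells, with 8 of 12 in the table and 5 lower, the sums were 13.1% to 19.2% of the Alb-WT mean in the first 3 Alb-Cre replicates and 129% in the fourth, against 87.2% to 110% in Alb-WT livers. The neutrophil list (6 of 10 in the table, all 6 lower) stood at 2.54% to 2.65% and, in replicate 4, at 31.1%, against 92.0% to 113% in Alb-WT livers. The neutrophil sum thus stayed low in the library in which the spindle kinesins reached 99.9%. S100a8 and S100a9 made up most of it. In replicate 4 these genes, Elane, Retnlg and Mmp9 were below every Alb-WT library. Csf3r (3.68 FPKM, against 3.42 to 3.77 FPKM) lay within the Alb-WT range there.

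The B and plasma cell list (8 of 9 in the table, 1 lower) stood at 64.2% to 68.7% and, in replicate 4, at 258%, against 95.5% to 106% in Alb-WT livers. A pair of genes carried that sum. Sdc1, of a proteoglycan of plasma cells that hepatocytes also make, held 62.1% to 65.9% of it in Alb-Cre replicates 1 to 3, 17.4% in replicate 4 and 49.1% to 52.6% in Alb-WT livers. Igkc, of the kappa light chain constant region, held 20.9% to 24.3% in Alb-Cre replicates 1 to 3, 65.2% in replicate 4 and 35.3% to 38.8% in Alb-WT livers. Cd79a, of the B cell receptor and named after its values were seen, had 0.272, 0.430, 0.422 and 2.72 FPKM in Alb-Cre and 1.66, 1.09, 1.28 and 1.04 FPKM in Alb-WT livers.

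The lists of other liver cells differed among themselves. The erythroid list (5 of 7 in the table, 4 lower by voom) stood at 31.5% to 43.3% of the Alb-WT mean in Alb-Cre replicates 1 to 3 and at 18.1% in replicate 4, against 87.3% to 113% in Alb-WT livers. Alas2 did not follow this sum, at 37.8 to 42.2 FPKM in Alb-Cre replicates 1 to 3. It had 16.4 FPKM in replicate 4 and 36.4 to 38.2 FPKM in Alb-WT livers. The cholangiocyte list (5 of 6 in the table, all 5 lower) stood at 43.0% to 48.7% and, in replicate 4, at 73.3%, against 93.7% to 109% in Alb-WT livers. Most of that sum was Spp1, at 32.3 to 36.7 of 36.2 to 41.0 FPKM in Alb-Cre replicates 1 to 3. It was 55.7 of 61.8 FPKM in replicate 4 and 70.9 to 83.7 of 79.0 to 92.2 FPKM in Alb-WT livers. The stellate cell list (8 of 8 in the table, 4 lower and 1 higher) stood at 59.4% to 63.7% and, in replicate 4, at 80.5%, against 96.8% to 103% in Alb-WT livers. The sinusoidal endothelium list (7 of 7 in the table, 2 lower) stood at 101% to 106% and, in replicate 4, at 73.7%, against 97.7% to 102% in Alb-WT livers. That sum held opposite moves. Lyve1 (2.36 to 2.86 FPKM, against 4.84 to 5.79 FPKM) and Stab2 (2.34 to 3.33 FPKM, against 4.41 to 4.51 FPKM) were lower in every Alb-Cre library. Clec4g and Oit3 were higher in Alb-Cre replicates 1 to 3 than in any Alb-WT library. Fcgr2b, Kdr and Pecam1 overlapped between the groups.

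Hepatocyte markers, 9 of 9 in the table and 3 lower by voom, stood at 103% to 107% of the Alb-WT mean in Alb-Cre replicates 1 to 3 and at 76.7% in replicate 4, against 99.1% to 101% in Alb-WT livers. Albumin alone made up 59.2% to 62.3% of this sum in Alb-Cre and 55.9% to 58.2% in the Alb-WT libraries. Of the 9 markers 4, Hnf4a, Cyp2e1, Tat and Apoa1, had all Alb-Cre values below all Alb-WT values, and of these Tat (-0.46, limma adjusted p = 0.00399) and Cyp2e1 (-0.37, adjusted p = 0.0141) were called. With median-of-ratios scaling neither was called (limma adjusted p = 0.0673 for Tat and 0.342 for Cyp2e1). After the gene length correction Tat kept its call (adjusted p = 0.00989) and Cyp2e1 did not (0.0656). The sums of the spindle kinesins, the cell cycle genes and the 5 immune, the erythroid, the cholangiocyte and the stellate cell lists were lower in Alb-Cre replicates 1 to 3 than in any Alb-WT library, and those of the hepatocyte and the endothelium lists were not. The part of these cell types in the levels of the motor genes was not tested.

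**Figure D3:**
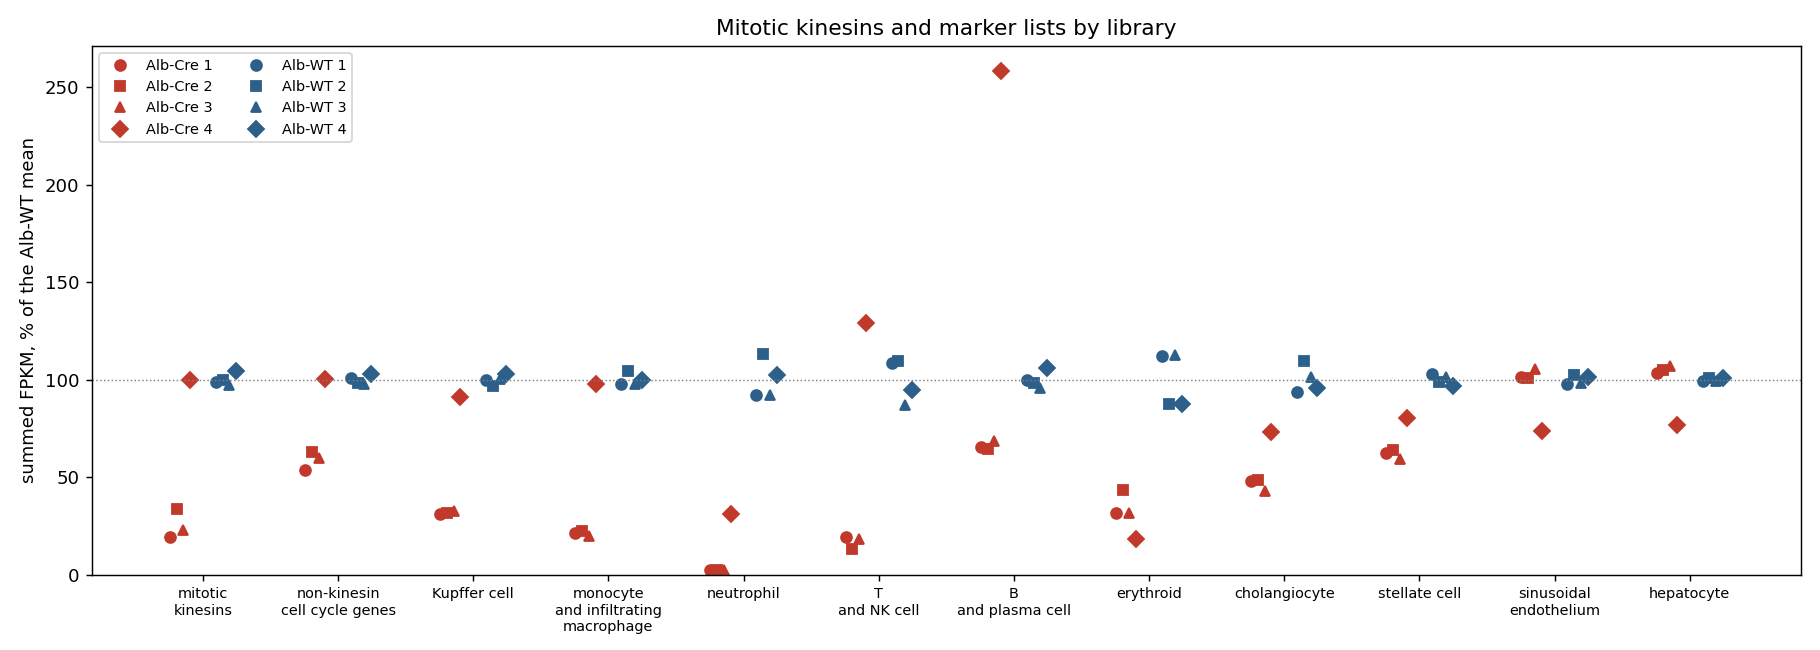
Summed FPKM of the 10 spindle kinesins, of the non-kinesin cell cycle genes and of the marker lists, as a percent of the Alb-WT mean of each list, by library, Alb-Cre in red left of Alb-WT in blue. The spindle kinesins stand at 19.5% to 33.5% in Alb-Cre replicates 1 to 3 and at 99.9% in Alb-Cre replicate 4 (red diamond), which stands at 258% for the B and plasma cell list and at 18.1% for the erythroid list.

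The promoters of the 4 spindle kinesins that voom called are printed because these genes were low together and share letters of the elements known from cell cycle promoters. Each runs from 250 bases before to 50 bases after the start of the gene, on the strand of the gene, as RefSeq gives it on GRCm38.p6. Capitals mark TTTGAA, the core of the cell cycle homology region bound by the MuvB complexes, and CCAAT, the box bound by NF-Y, each on either strand (TTCAAA and ATTGG where reversed).
Kif11: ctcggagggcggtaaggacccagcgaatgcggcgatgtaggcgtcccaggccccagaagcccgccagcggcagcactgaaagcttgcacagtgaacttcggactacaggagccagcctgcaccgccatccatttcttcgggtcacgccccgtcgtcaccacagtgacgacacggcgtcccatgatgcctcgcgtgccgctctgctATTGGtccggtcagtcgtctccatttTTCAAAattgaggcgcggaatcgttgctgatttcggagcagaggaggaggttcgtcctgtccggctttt
Kif14: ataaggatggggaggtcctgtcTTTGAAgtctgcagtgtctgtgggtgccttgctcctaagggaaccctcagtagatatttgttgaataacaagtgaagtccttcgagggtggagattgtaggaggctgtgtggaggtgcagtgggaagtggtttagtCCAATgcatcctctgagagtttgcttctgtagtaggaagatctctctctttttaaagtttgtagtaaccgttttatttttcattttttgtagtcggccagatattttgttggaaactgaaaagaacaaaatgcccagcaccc
Kif22: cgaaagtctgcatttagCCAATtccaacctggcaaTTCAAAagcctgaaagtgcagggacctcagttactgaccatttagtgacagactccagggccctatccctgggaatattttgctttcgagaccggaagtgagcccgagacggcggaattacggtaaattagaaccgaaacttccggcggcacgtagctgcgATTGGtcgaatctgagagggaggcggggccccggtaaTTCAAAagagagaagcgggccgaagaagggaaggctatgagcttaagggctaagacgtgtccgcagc
Kif23: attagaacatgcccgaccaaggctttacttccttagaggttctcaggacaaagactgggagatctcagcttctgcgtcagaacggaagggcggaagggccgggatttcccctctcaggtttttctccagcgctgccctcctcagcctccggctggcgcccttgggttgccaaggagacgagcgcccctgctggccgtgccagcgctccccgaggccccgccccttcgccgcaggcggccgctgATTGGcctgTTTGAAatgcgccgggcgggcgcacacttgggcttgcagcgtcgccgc

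The Kif11 window is chr19:37376132-37376431 on the plus strand, that of Kif14 chr1:136467598-136467897 on the plus strand, that of Kif22 chr7:127042371-127042670 on the minus strand and that of Kif23 chr9:61946750-61947049 on the minus strand. In Kif11 the box and the core begin 45 and 19 bases before the start, and in Kif22 the nearer pair begins 54 and 17 bases before it. In Kif23 the box begins 7 bases before the start and the core just after it. In Kif14 both lie farther out, at 228 bases for the core and 92 for the box. RefSeq windows were at hand for 9 of the 10 spindle kinesins in the table. TTTGAA stood in 7 of the 9, against 17.9% of all 32851 promoter windows, CCAAT in 6 of the 9, against 37.4%, and both in 5 of the 9, against 7.0%. The motifs share no bases in the printed windows. A match of letters describes the window and shows no binding.

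Motor genes that the naming rule did not take were counted from a list of 26. Of these 23 were in the table and 19 were tested; 11 fell, against 23.3% of all tested rows, none rose and 8 were not called, with a median log2 fold change of -0.22. After the gene length correction 4 were lower, against 12.0% of all rows, and with median-of-ratios scaling 5, against 13.7%. Without Alb-Cre replicate 4, 14 were lower, against 46.1%. Nudc, of a dynein-associated chaperone and the most abundant, had 50.6, 44.5, 52.8 and 45.7 FPKM in Alb-Cre and 47.6, 44.7, 45.1 and 48.8 FPKM in Alb-WT livers and was not called (log2 fold change 0.05). Kifc2, of a minus-end-directed kinesin, had 0.830, 0.554, 0.398 and 0.948 FPKM in Alb-Cre and 1.83, 1.56, 1.92 and 1.96 FPKM in Alb-WT livers, without overlap (log2 fold change -0.75, SE 0.11, limma adjusted p = 0.00282, and -1.47 by voom). Capza2, of the capping protein at the barbed end of the dynactin filament, had 14.1, 14.1, 12.6 and 15.4 FPKM in Alb-Cre and 19.9, 18.6, 19.5 and 17.8 FPKM in Alb-WT livers. It too separated the groups (log2 fold change -0.41, SE 0.073, adjusted p = 0.00594). Numa1, of the spindle pole adaptor of dynein, fell by 0.46 (adjusted p = 0.0106).

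Genes of the tracks on which the motors run were called in both directions. Of 23 listed tubulin and microtubule-associated genes 22 were in the table and 21 were tested; 4 rose, against 8.48% of all tested rows, 5 fell, against 23.3%, and 12 were not called. The share that fell was thus close to that over all rows. Without Alb-Cre replicate 4, 4 were higher, against 15.2%, and 12 lower, against 46.1%. Tubb2a, a beta-tubulin gene and the most abundant, had 61.6, 56.3, 68.8 and 45.8 FPKM in Alb-Cre and 35.2, 29.9, 31.6 and 34.4 FPKM in Alb-WT livers (log2 fold change 0.80, SE 0.12, limma adjusted p = 0.00283). Tubb4b, the beta-tubulin gene known from cilia and most tissues, had 54.6, 56.1, 60.1 and 62.6 FPKM in Alb-Cre and 30.8, 30.5, 28.6 and 30.1 FPKM in Alb-WT livers. Its means were 58.3 ± 3.64 FPKM in Alb-Cre and 30.01 ± 0.945 FPKM in Alb-WT livers (SD, n = 4 each; log2 fold change 0.93, SE 0.064, limma adjusted p = 7.95e-05). Here all 4 Alb-Cre libraries lay close together, replicate 4 with the others.

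Tuba1c, an alpha-tubulin gene, had 28.4, 33.1, 29.1 and 35.7 FPKM in Alb-Cre and 16.6, 14.6, 15.9 and 16.1 FPKM in Alb-WT livers (log2 fold change 0.95, SE 0.086, limma adjusted p = 0.000278). The other rise, named after its values were seen, was that of Tuba4a (0.73). The 5 that fell, likewise named, were Tuba8 (-0.90), the plus-end binding genes Mapre3 (-0.44), Mapre2 (-0.39) and Clip1 (-0.22), and Clasp2 (-0.34), of a plus-end stabilizer. Tubulin genes of a class are close in coding sequence, and reads shared between them make the split among Tuba1a, Tuba1b and Tuba1c and between Tubb2a and Tubb2b uncertain. The 4 rises were called also after the gene length correction and with median-of-ratios scaling. Of the 5 falls, those of Clip1 (adjusted p = 0.953), Clasp2 (0.290) and Mapre2 (0.0883) were lost after the length correction, and that of Clip1 also with median-of-ratios scaling (adjusted p = 0.481). By voom the values were -1.57 for Tuba8, -0.83 for Clasp2 and -0.59 for Mapre2.

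**Figure D4:**
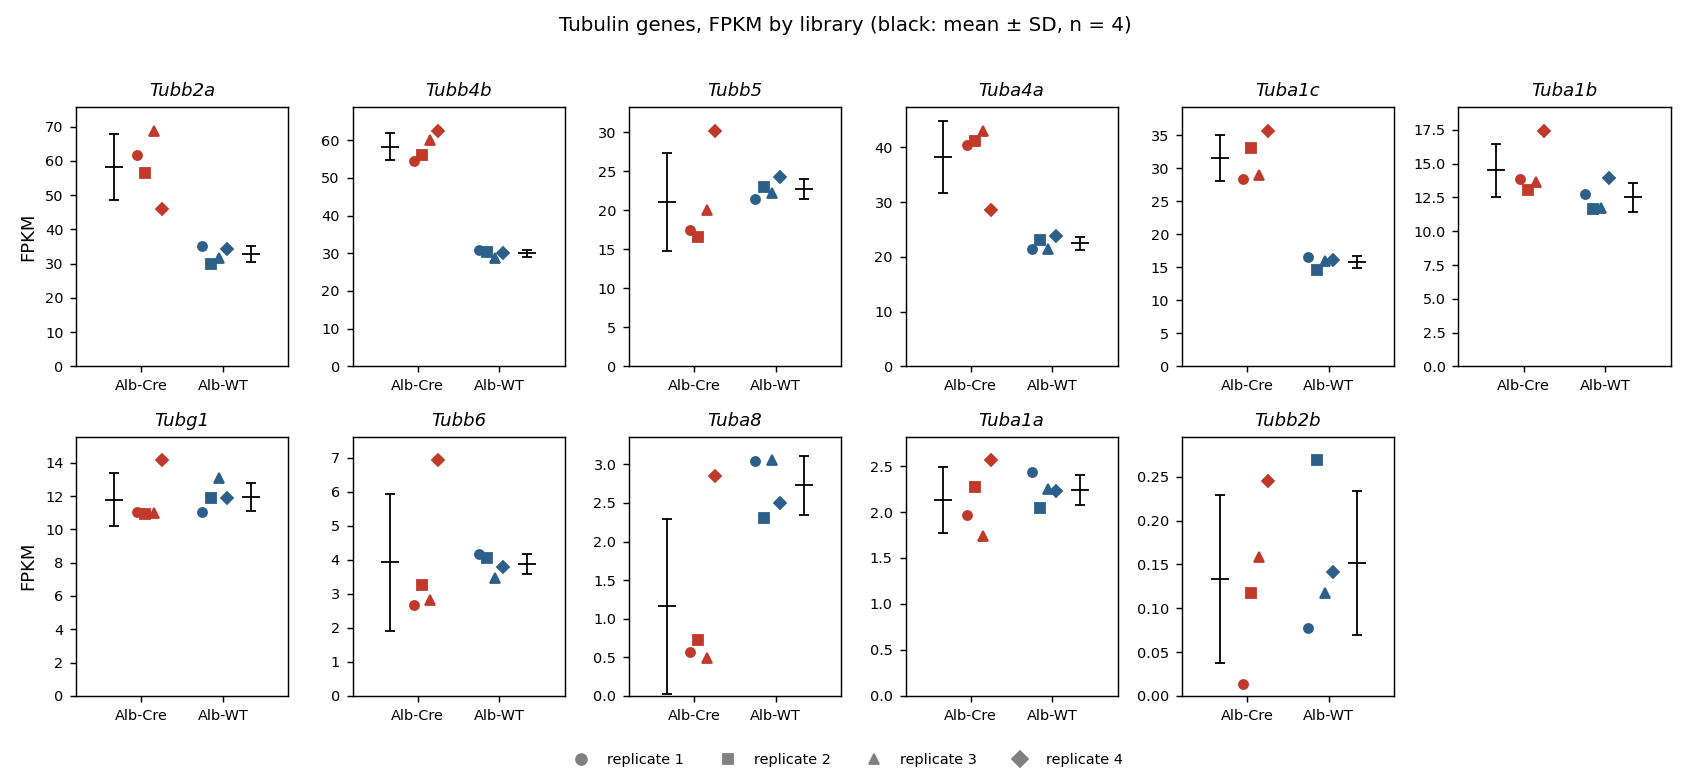
FPKM of 11 tubulin genes in each library, Alb-Cre in red on the left and Alb-WT in blue on the right of each panel, with the mean ± SD (n = 4) in black; every axis starts at 0. Tubb2a, Tubb4b, Tuba4a and Tuba1c are higher in every Alb-Cre library than in any Alb-WT library, and for Tubb5, Tubb6 and Tuba8 the Alb-Cre replicate 4 diamond stands above the other Alb-Cre points.

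Gene length went along with the fold changes, in the motor genes as in all genes. Spearman's rho between log2 fold change and exon length was -0.321 over the 44 tested motor genes and -0.246 over the 11077 tested rows, which describes genes of the same libraries. Of the 21 tested motor genes shorter than 5000 bases 2 rose and 1 fell, and of the 23 longer ones none rose and 8 fell. Among all rows 782 of 6608 shorter ones rose and 1156 fell, and 157 of 4469 longer ones rose and 1426 fell. Both rises, Dynlrb1 (1009 bases) and Dynll1 (3890 bases), were in shorter genes, and Hook3 (28486 bases), Kif1b (17809 bases) and Dync1h1 (15658 bases) were among the longest.

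After a smooth trend on length was taken out of each library, 5 motor genes were higher, against 14.7% of all rows, and 2 lower, against 12.0%. The 2 lower ones were Bicd2 (log2 fold change -1.06, limma adjusted p = 0.000111) and Dync1h1 (-0.21, adjusted p = 0.0485), and Dynlrb1 and Dynll1 kept their calls. Rab6a (0.26), Hook1 (0.31) and Actr10 (0.31) were then called higher. Hook3, at -0.07, Kif1c, at -0.02, and Kif16b, at -0.03, were close to 0 after this step. The step also takes out the level of each library, so length and level are not told apart in it. With median-of-ratios scaling, which does not use length, Hook3 was at -0.21, Kif1c at -0.02 and Kif16b at -0.12. With median-of-ratios scaling 7 motor genes were higher, against 16.9% of all rows, and 4 lower (Bicd2, Hook3, Dync1h1 and Kif2a), against 13.7%. The median log2 fold change over all rows was -0.13 as deposited, 0.02 with median-of-ratios scaling and 0.02 after the length correction, so a motor gene near -0.13 lay at the middle of all genes. Among the genes of few FPKM, voom gave larger falls than log2(FPKM + 1), at -2.19 for Bicd2, -0.53 for Hook3, -0.61 for Kif2a and -0.41 for Kif16b, and -0.94 for Dync2li1, which voom did not call (adjusted p = 0.0623). Only Bicd2, Dync1h1 and Dynll1 of the 11 called motor genes kept their call in every setting in which they were tested and on leaving out each library in turn.

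**Figure D5:**
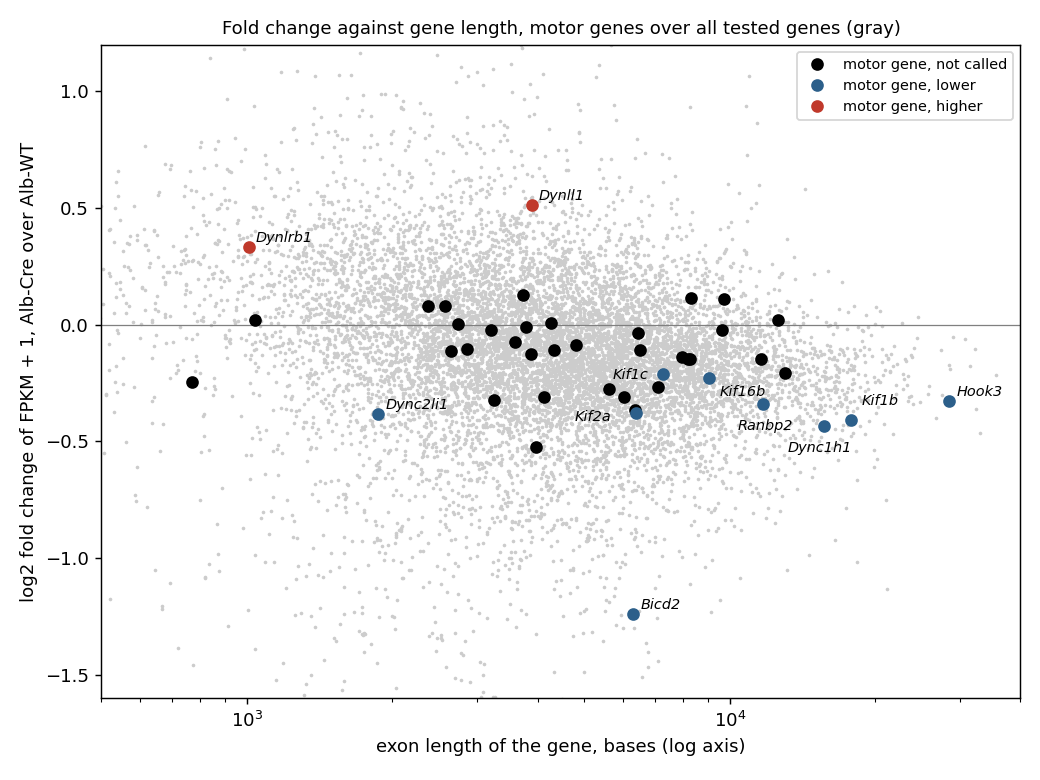
Log2 fold change of FPKM + 1, Alb-Cre over Alb-WT, against exon length in bases (log axis), for the 44 tested motor genes (large points: red higher, blue lower, black not called) over all tested genes in gray; gray points beyond the axes are not drawn. The blue points Kif1b, Dync1h1 and Hook3 lie at the long end, Dynlrb1 (1009 bases) at the short end, and Bicd2 lies apart at -1.24.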

How the data were processed

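RNA sequencing of mouse liver was analysed from a single table of the 8 libraries, grouped by their titles. Its values are FPKM, which the authors computed before they deposited the table. Trizol-extracted RNA went into standard Illumina libraries, per the labels' protocols. A mention of 10x Genomics, a supplier of single-cell kits, in the descriptions does not match that protocol or a table of 1 column per library. HISAT2 2.0.5 was used per the submitters' processing notes, which list the builds hg38 and mm39 with no role. No source used here gives the counter, the annotation or the strand setting, so overlapping antisense reads cannot be told apart. The table had 13703 rows for 13696 symbols and no value of 0, so a gene without reads in any single library is missing from it. Such a gene may have had reads in the other libraries.

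The steps between FPKM values gave whole reads for all 13703 rows (100%, tolerance 0.001), and the implied lengths equalled merged GENCODE M21 exons within 1 base in 12758 rows. Recovered reads made up 99.1% to 99.3% of the library totals that the scaling implies. Of the values of 20 reads or fewer, 75.7% were even, so a step may be a mate rather than a fragment. Genes of few reads are less precise.

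Values were tested as log2(FPKM + 1), which understates changes of low genes, with limma 3.58.1 in R 4.3.3 (empirical Bayes with an intensity trend, with genotype alone in the model). Rows averaging 0.5 FPKM or more entered, 11077 in all. Calls needed an adjusted p under 0.05 (Benjamini-Hochberg over all of them). Alternatives were a common FPKM sum, median-of-ratios scaling, quantile normalization, a loess trend on gene length removed from each library, a pseudocount of 0.1, no filter, a mean of at least 5 FPKM, limma's voom on the recovered reads, a replicate block and leaving out each library. The length trend was removed together with its level, so that step also recentres each library. Voom with no filter, also without Alb-Cre replicate 4, was added after seeing the data. The fit was checked on simulated data. The members and lists were chosen with earlier results of these data known.

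Bicd2, the most abundant member of each role and up to 4 called members got all values, and every other member its log2 fold change or range. Of the related lists, the most abundant gene and up to 3 called genes were named. Promoters came from RefSeq on GRCm38.p6. Python 3.11.15 with numpy 2.4.6, pandas 2.3.3 and matplotlib 3.10.9 did the rest.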

Additional observations from a re-analysis of the deposited data

Results flagged for a closer look

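A single library lay far from the others of its group for 16 of 146 groups of 4 values (73 genes in 2 genotypes), by a gap to the nearest value that exceeded Dixon's 95% critical share of the group's range. Chance alone marks about 1 in 20 groups. Of the 16, 12 were Alb-Cre replicate 4, and in all 12 it was the highest of its group.

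Among the adaptors, regulators and partners these were Ranbp2, at 6.64 FPKM there and 4.85 to 4.99 FPKM in the rest of its group, Rab6b (0.467 FPKM, against 0.189 to 0.230), Hook2 (7.68 FPKM, against 3.30 to 3.94) and Trak1 (5.49 FPKM, against 3.76 to 3.86). Among the dynein chains they were Dync1h1 (5.34 FPKM, against 3.71 to 3.88) and Dynll1 (12.3 FPKM, against 8.80 to 9.11).

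Among the kinesins they were Kif5b (6.85 FPKM, against 4.94 to 5.18), Kif21b (0.340 FPKM, against 0.0758 to 0.120), Klc1 (3.17 FPKM, against 1.56 to 1.77) and the spindle kinesins Kif2c (0.363 FPKM, against 0.0274 to 0.0641), Kif4 (0.283 FPKM, against 0.0111 to 0.0325) and Kif14 (0.0394 FPKM, against 0.00589 to 0.0115). For Dynll1, which rose, this library lay farther from the Alb-WT livers than the rest of its group, and for Hook2, Trak1, Kif5b, Klc1, Kif2c and Kif4 it was also above every Alb-WT library.

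The other 4 were Kif26a in Alb-Cre replicate 1 (0.198 FPKM, against 0.111 to 0.121), Nde1 in Alb-WT replicate 4 (6.16 FPKM, against 4.92 to 5.09), Kif20b in Alb-WT replicate 2 (0.118 FPKM, against 0.241 to 0.253) and Klc1 in Alb-WT replicate 2 (2.52 FPKM, against 2.92 to 2.96).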

How the results depend on the processing

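Bicd2 was called lower under every alternative that tested it, from -1.03 on the log2 scale with quantile normalization to -2.28 with voom and no filter without Alb-Cre replicate 4, and from -1.29 to -1.20 on leaving out single libraries. It falls under a filter of 5 FPKM. Over all rows, 939 were higher and 2582 lower. These counts were 1874 and 1516 with median-of-ratios scaling, 1522 and 1478 with quantile normalization, 1629 and 1325 after the length correction, 613 and 1631 with a replicate block, 623 higher with a common FPKM sum and 981 lower at a mean of at least 5 FPKM. Leaving out single libraries gave 546 to 1679 higher and 1205 to 5112 lower, and voom with no filter without Alb-Cre replicate 4 gave 1794 and 6097. Of the motor genes, 2 were higher and 9 lower. The higher count was 7 with median-of-ratios scaling, 5 after the length correction, 1 with the block and 1 to 3 on leaving out single libraries. The lower count was 4, 3 and 2 with median-of-ratios scaling, quantile normalization and the length correction, 17 with no filter, 4 at 5 FPKM, 18 with voom and no filter, 45 with that and without Alb-Cre replicate 4, 5 with the block and 5 to 24 on leaving out single libraries. Alb-Cre replicate 4 gave the highest of these counts when left out.

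Of the 11 called motor genes, 11 kept their call with a common FPKM sum, 6 with median-of-ratios scaling, 4 with quantile normalization, 4 after the length correction, 10 with voom and 6 with the block, and none changed sign. Replicate numbers did not pair the samples: same-numbered libraries deviated with correlations of -0.0649, -0.054, -0.0968 and 0.0131, so the block uses numbers alone.

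Only genes that were not called changed sign. Log2 fold changes were Pafah1b1 0.15, Nde1 0.14, Dync1i2 0.022, Dync1li1 0.038, Dynlt1c 0.055, Dctn2 0.098, Actr1a 0.073, Dctn5 0.065, Dctn6 0.057, Dctn1 0.053, Kif21a 0.14, Kif5b 0.028, Kif3a 0.031 with median-of-ratios scaling; Pafah1b1 0.18, Nde1 0.093, Dync1i2 0.045, Dync1li1 0.011, Dynlt1c 0.12, Dctn3 -0.014, Dctn2 0.07, Actr1a 0.039, Dctn1 0.076, Dctn4 0.064, Kif21a 0.15, Kif5b 0.053, Kif13b 0.011, Kif13a 0.047, Kif3a 0.054 after the length correction; Pafah1b1 0.065, Nde1 0.12, Dync1li1 0.031, Dynll2 -0.13, Dynlt1c 0.17, Dctn6 0.046, Dctn1 0.047, Dctn4 0.064, Kif21a 0.059, Kif13a 0.067, Kif3a 0.14 with quantile normalization; Trak1 -0.048, Dynll2 -0.084, Dynlt3 -0.003, Dctn3 -0.062, Actr1b -0.072, Klc4 -0.003 with a common FPKM sum; and Trak1 -0.11, Actr1b -0.081 with voom and no filter without Alb-Cre replicate 4. On leaving out single libraries the ranges were Actr1b -0.076 to 0.063, Dctn3 -0.021 to 0.084, Dynll2 -0.077 to 0.084, Dynlt1c -0.07 to 0.05, Kif21a -0.11 to 0.009, Nde1 -0.081 to 0.043, Trak1 -0.088 to 0.061. The cause was not tested. The members under the filter rest on 1 to 281 reads per library, so only large differences could be seen in them.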
